A study of Mus musculus with 18 samples.

Results

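The genes described here are 8 monocyte genes measured in mouse liver after ischemia-reperfusion (IR), in which blood flow to the liver is stopped and later resumed, or after sham surgery. They are the CC chemokines Ccl2, Ccl7, Ccl12, Ccl3 and Ccl4, the chemokine receptors Ccr2 and Cx3cr1, and the monocyte surface marker Ly6c2. They were chosen by name and found in the table through the GENCODE vM21 symbols of its Ensembl identifiers. All 8 were present among its 47729 identifiers.

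Chemokines are small secreted proteins that direct the migration of leukocytes through G-protein-coupled receptors. Ccl2, Ccl7 and Ccl12 are ligands of Ccr2, which carries inflammatory monocytes out of the bone marrow and into injured tissue. Ccl3 and Ccl4, also known as MIP-1 alpha and MIP-1 beta, attract monocytes and lymphocytes, and Ccl3 acts on Ccr1. In mice, classical monocytes are known by high Ly6C and Ccr2, and nonclassical, patrolling monocytes by high Cx3cr1, the receptor of Cx3cl1. In the injured liver, Kupffer cells, stellate cells, endothelium and hepatocytes are all known sources of Ccl2.

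Total liver RNA was sequenced from 18 samples of 3 genotypes, Wt, Il22-/- and Il22bp-/-, with 3 samples of each genotype after IR and 3 after sham surgery. The cytokine IL-22 signals to epithelia and hepatocytes, and IL-22BP is a secreted decoy receptor that binds it. The sources used here give no age of the mice, duration of ischemia or time of reperfusion. Column headers read IR or W with a number, 9 of each, and carry no genotype. W was read as sham by elimination, since 9 sham samples remain and the series has 6 wild-type samples. Each group of 9 therefore mixes the 3 genotypes. Differences between genotypes, and a check of the deleted genes against the labels, could not be made. Nothing in the sources says that the samples came from separate animals, so p-values measure the spread between these libraries.

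The authors' values are gene read counts after division by a DESeq2 size factor, called normalized read counts below. Total reads per library were 10176617 to 12558179 after IR and 10716890 to 12763837 after sham surgery. Of 13875 genes tested with limma, 5224 were higher in IR, which is 37.7% of those tested, and 5095 were lower, which is 36.7%. With a log2 difference of at least 1 as well, 2243 genes or 16.2% were higher. The normalized total was lower in IR (9088021 to 11588384) than in sham libraries (11457888 to 12650569), and albumin RNA (Alb) fell by 1.80 on the log2 scale. When each library was scaled to its own total instead, 6373 genes were higher and 3956 lower, a share of 61.7% higher against 50.6%, and the median difference over all genes moved from 0.02 to 0.26. The first principal component, with 67.3% of the variance, separated the surgeries.

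The 5 ligands lie in 2 clusters on chromosome 11 (GRCm38). Ccl2, Ccl7 and Ccl12 occupy 67.8 kb from 82035571 to 82103400, all on the plus strand. Ccl3, on the minus strand, and Ccl4, on the plus strand, occupy 16.8 kb from 83647844 to 83664683. The family is named for a pair of adjacent cysteines near the start of the mature protein. The stretches of 36 bases below, from exon 2 of 3 of 4 of the ligand genes and taken from the GENCODE vM21 transcripts, show this shared feature, with both cysteine codons in capitals.
Ccl2 (chr11:82036491-82036526, plus strand): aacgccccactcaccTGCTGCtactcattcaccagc
Ccl7 (chr11:82046523-82046558, plus strand): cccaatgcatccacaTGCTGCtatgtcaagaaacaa
Ccl12 (chr11:82102619-82102654, plus strand): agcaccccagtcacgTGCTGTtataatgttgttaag
Ccl4 (chr11:83663467-83663502, plus strand): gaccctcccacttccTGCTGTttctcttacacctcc
The letters around the cysteine codons differ among the genes. Over the aligned coding sequences with gaps counted, Ccl3 and Ccl4 were 68.4% identical, and Ccl7 and Ccl12 63.5%. Ccl2 and Ccl12 were 48.3% identical, and Ccl2 and Ccl7 46.6%. The coding sequence used for Ccl2 is longer (447 bases, against 294 for Ccl7 and 315 for Ccl12), which lowers its percentages. Identical bases were 217 for Ccl2 and Ccl12, 210 for Ccl2 and Ccl7, and 202 for Ccl7 and Ccl12. None of the 50-base windows of the 5 transcripts occurred in another gene, so reads of that length tell them apart.

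Of the 8 genes, 7 passed the filter of a mean of 5 normalized reads over the 18 libraries, and 6 of these were higher in IR at an adjusted p under 0.05, 5 of them with a log2 difference of at least 1. None was lower. These counts stand against the 37.7% and 16.2% of all tested genes given above. Ccl7, Ccl3 and Ccl4, with sham means of 1.67, 2.95 and 1.66 normalized reads, passed the filter only through their IR values. A gene as low in sham libraries that had not risen would have been left out, so the counts lean towards genes that rose. In Ccl2, Ccl7, Ccl4 and Cx3cr1 every IR library lay above every sham library, as in 18.6% of all tested genes, while 19.1% had every IR library below every sham library. The median log2 difference of the 7 genes was 2.24, against 0.02 over all tested genes. Liver tissue was sequenced whole, so that a change in the number of cells of a type and a change in RNA per cell cannot be told apart.

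**Figure D1:**
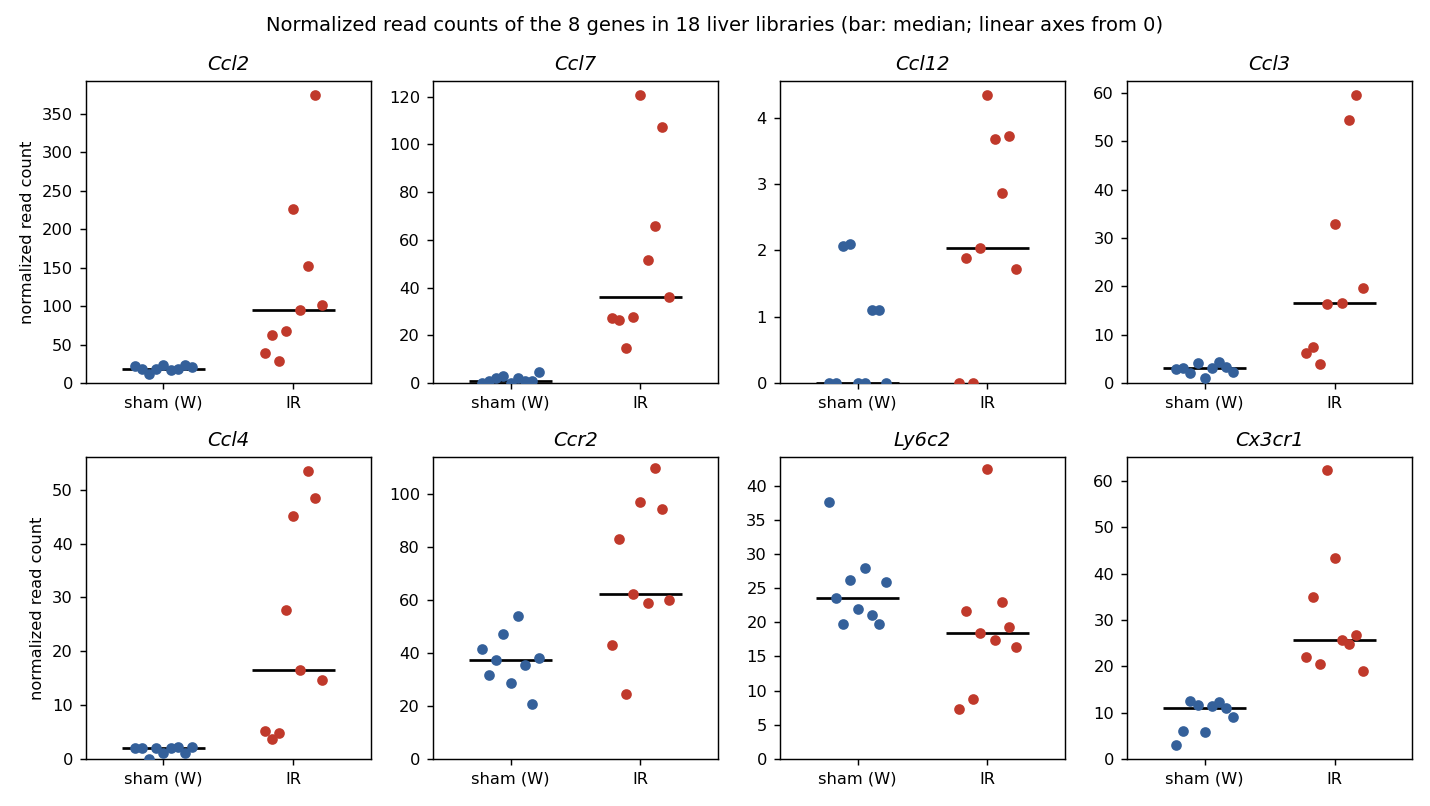
Normalized read counts of the 8 genes, 1 point per library, for 9 sham (W) and 9 IR libraries, on linear axes from 0 with a bar at the median. Ccl2, Ccl7, Ccl4 and Cx3cr1 show no overlap between the groups, and Ly6c2 lies lower in most IR libraries.

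Ccl2 (ENSMUSG00000035385), the main Ccr2 ligand, had the highest level per kb of exon of the 8 genes in both groups. It was measured at 12.4 to 24.2 normalized reads in sham libraries, with a median of 18.9, and at 28.4 to 374.5 in IR libraries, with a median of 95.5. In order of their header numbers the 9 IR libraries held 38.7, 62.3, 28.4, 67.4, 226.3, 95.5, 151.8, 374.5 and 101.4 normalized reads. The lowest IR library thus lay just above the highest sham library, while the top IR library, at 374.5, was followed by 1 at 226.3. Ccl2 rose by 2.24 (SE 0.36) on the log2(value + 1) scale, or 4.73-fold, with a 95% interval of 2.79 to 7.995 and a limma adjusted p of 1.31e-05. The exact 2-sided permutation p was 4.11e-05, the smallest that the 48620 splits into 9 and 9 can give.

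Ccl7 (ENSMUSG00000035373), a second Ccr2 ligand, showed the largest difference of the 8 genes. Sham libraries held 0 to 4.51 normalized reads with a median of 1.11, and 2 of them had no read. IR libraries held 14.7 to 120.5 with a median of 36.1. The groups were far apart, with 546 reads over all IR libraries and 14 over all sham libraries. The log2 difference was 4.24 (SE 0.40, 95% interval 3.40 to 5.08), with a limma adjusted p of 8.09e-09. It lay at percentile 99.5 of all tested differences, and the ratio of the group means was 31.7.

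Ccl12 (ENSMUSG00000035352), another Ccr2 ligand, was close to undetected. It had 23 reads in all IR libraries together and 6 in all sham libraries, and 2 IR and 5 sham libraries had none. IR libraries held 0 to 4.34 normalized reads with a median of 2.04, and sham libraries 0 to 2.10 with a median of 0. Only 4 IR libraries exceeded every sham library, and a mean of 1.48 over all libraries kept Ccl12 out of the main test. Its log2 difference of 0.89 had an exact permutation p of 0.0417, and a limma adjusted p of 0.0515 when no filter was applied.

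The window of 250 bases before the annotated start was available in RefSeq (GRCm38.p6) for Ccl12, Ccl3, Ccr2, Cx3cr1 and Ly6c2, which are 5 of the 8 genes. The windows of Ccl12, Ccl3 and Ly6c2 are shown because these genes stand for a ligand near the detection limit, a ligand that rose and the member that did not rise. Capitals mark matches, on either strand, to TATAAAA or GAGGAAGT.
Ccl12 (chr11:82101595-82101844, plus strand): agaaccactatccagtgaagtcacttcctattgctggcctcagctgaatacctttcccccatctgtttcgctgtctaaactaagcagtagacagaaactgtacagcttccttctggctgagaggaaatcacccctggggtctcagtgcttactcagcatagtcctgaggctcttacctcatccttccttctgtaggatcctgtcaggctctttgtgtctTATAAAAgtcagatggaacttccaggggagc
Ccl3 (chr11:83649379-83649628, minus strand): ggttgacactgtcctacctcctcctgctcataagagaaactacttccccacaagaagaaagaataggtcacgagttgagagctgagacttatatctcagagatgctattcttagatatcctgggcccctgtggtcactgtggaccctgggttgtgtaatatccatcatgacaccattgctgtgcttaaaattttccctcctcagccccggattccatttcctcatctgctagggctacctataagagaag
Ly6c2 (chr15:75111972-75112221, minus strand): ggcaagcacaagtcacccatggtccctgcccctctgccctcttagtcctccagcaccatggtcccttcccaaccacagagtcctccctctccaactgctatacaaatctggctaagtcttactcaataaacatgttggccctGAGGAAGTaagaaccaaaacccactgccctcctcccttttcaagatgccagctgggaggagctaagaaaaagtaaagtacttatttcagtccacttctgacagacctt
A TATA box sequence, TATAAAA, occurred once in the Ccl12 window, 31 bases before the start, and in 4.98% of 32851 promoter windows of this length. GAGGAAGT, the core of the motif of the myeloid factor PU.1, occurred once in the Ly6c2 window shown, 108 bases before the start, and in 2.44% of all windows. RefSeq gives Ly6c2 a second start, whose overlapping window held 2 matches, 1 of them the same stretch. A kappaB-like sequence, GGGNNTTTC, present in 3.72% of all windows, and the AP-1 sequence TGANTCA, present in 6.75%, had no match in any of the 5 genes. The Ccl3, Ccr2 and Cx3cr1 windows matched none of the 4 sequences. A match describes letters and not a bound site.

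Ccl3 and Ccl4, the MIP-1 chemokines, rose from a few reads per library. Ccl3 (ENSMUSG00000000982) was measured at 1.15 to 4.44 normalized reads in sham libraries, with a median of 3.06, and at 3.92 to 59.6 in IR libraries, with a median of 16.5. The lowest IR library, number 3, fell within the sham range, and the other 8 lay above it. The log2 difference of Ccl3 was 2.25 (SE 0.42), a 4.77-fold rise on the log2(value + 1) scale, with a limma adjusted p of 5.95e-05. The pseudocount lowers this fold, and the log2 difference was 2.41 at a pseudocount of 0.5 and 1.57 at 5. The ratio of the group means, which gives high libraries more weight, was 8.19, and DESeq2 gave a log2 difference of 3.04.

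Ccl4 (ENSMUSG00000018930) was measured at 0 to 2.25 normalized reads in sham libraries, with a median of 2.04, and at 3.78 to 53.5 in IR libraries, with a median of 16.5. No IR library overlapped the sham libraries, which held 14 reads in all against 249. The log2 difference of Ccl4 was 2.81 (SE 0.47), a 7.02-fold rise on the log2(value + 1) scale, with a limma adjusted p of 1.69e-05. The ratio of the group means was 14.7, and DESeq2 gave a log2 difference of 3.88.

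Ccr2 (ENSMUSG00000049103, chromosome 9, 124101950 to 124113557, plus strand) rose in IR, and less than its ligand Ccl2 by the ratio test given below. Sham libraries held 20.9 to 53.9 normalized reads with a median of 37.3, and IR libraries 24.5 to 109.8 with a median of 62.3. The groups overlapped, with 7 of 9 IR libraries above every sham library. The log2 difference was 0.82 (SE 0.24, 95% interval 0.33 to 1.32), a 1.77-fold rise, with a limma adjusted p of 0.00411 and an exact permutation p of 0.00699. It lay at percentile 79.1 of all tested genes. Of its 50-base windows, 1.91% occurred in another gene.

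Cx3cr1 (ENSMUSG00000052336, chromosome 9, 119901616 to 120069879, minus strand), the receptor that marks patrolling monocytes and some resident macrophages, was higher in every IR library. It was measured at 2.97 to 12.4 normalized reads in sham libraries, with a median of 10.97, and at 18.9 to 62.3 in IR libraries, with a median of 25.7. The log2 difference was 1.65 (SE 0.26, 95% interval 1.11 to 2.20), a 3.15-fold rise, with a limma adjusted p of 8.83e-06. Its exons share 78 bases, 1.73% of their length, with Gm33858 on the opposite strand, and the use of strand in counting is not stated in the labels.

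Ly6c2 (ENSMUSG00000022584, chromosome 15, 75108158 to 75111970, minus strand), which encodes the Ly6C antigen of classical monocytes, did not rise with Ccr2. Sham libraries held 19.7 to 37.7 normalized reads with a median of 23.5, and IR libraries 7.32 to 42.5 with a median of 18.4. Of the IR libraries, 6 lay below every sham library and 1, number 5, lay above. The log2 difference was -0.46 (SE 0.24, 95% interval -0.97 to 0.04), with a limma adjusted p of 0.0908 and an exact permutation p of 0.0911. Without IR library 5 the difference was -0.62 with a limma adjusted p of 0.0133, so that this library decides the call in the main setting. Over the other settings the difference was -0.49 to -0.23 and was never called. It was smallest with libraries scaled to their totals (limma adjusted p of 0.431).

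A near copy, Ly6c1, lies on the same strand at 75044018 to 75048830. It is 80.9% identical to Ly6c2 over the aligned coding sequence with gaps counted. The identical bases were 365, with 396 coding bases in Ly6c2 and 444 in Ly6c1. In Ly6c2, 14.4% of the 50-base windows occurred in another gene, and in Ly6c1 32.8%, so that the split of reads between the pair is uncertain. Ly6c1 was below the filter, with means of 4.72 normalized reads in IR and 3.74 in sham libraries, and an exact permutation p of 0.390. The sum of the pair had a log2 difference of -0.32 and an exact permutation p of 0.187.

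Per kb of annotated exon, the sham libraries ranked Ccl2 first, with a median of 16.6 normalized reads per kb, above Ly6c2 at 8.57 and Ccr2 at 5.52, each step holding in 9 of 9 libraries. Ccl3 at 3.999, Ccl4 at 3.09, Cx3cr1 at 2.44 and Ccl7 at 1.39 followed with overlapping ranges, and Ccl12 had a median of 0. In IR libraries the leading genes were Ccl2, Ccl7, Ccl4 and Ccl3. Ccl2 had a median of 84.0 per kb and lay above Ccl7, at 45.0, in 9 of 9 libraries. Ccl4 at 25.1 and Ccl3 at 21.6 did not differ beyond their spread, with Ccl4 higher in 5 of 9. Ccr2 at 9.22, Ly6c2 at 6.71, Cx3cr1 at 5.71 and Ccl12 at 3.81 came last, with overlapping ranges. The exon lengths are unions over annotated transcripts, from 537 bases for Ccl12 to 6760 for Ccr2, and a long union lowers the level per kb.

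The differences were unequal among the genes. Log2 ratios of gene pairs within each library were compared between the groups for 7 pairs, with exact 2-sided permutation tests adjusted over the 7. Ccl2 exceeded Ccl7 by 3.12 ± 1.00 (SD, n = 9) on the log2 scale in sham and by 1.12 ± 0.38 in IR libraries, a fall of the ratio by 2.00 with an adjusted permutation p of 1.44e-04. The size of this fall depends on the pseudocount, since Ccl7 was at or near 0 in sham libraries, and ranged from -2.40 to -0.84. The ratio of Ccl2 to Ccr2 rose by 1.42, with an adjusted permutation p of 8.64e-04, and that of Ccr2 to Ly6c2 by 1.29, with an adjusted permutation p of 1.44e-04.

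For Ccl2 against Ccl12 the ratio rose by 1.35, with an adjusted permutation p of 0.00166, but 5 sham libraries had no Ccl12 read, and the rise was 1.07 (adjusted permutation p of 0.0475) at a pseudocount of 0.5 and 1.72 at 5. Cx3cr1 rose more than Ccr2, and the log2 ratio of Ccr2 to Cx3cr1 fell by 0.83, with an adjusted permutation p of 0.0262. For Ccl3 against Ccl4 the change was -0.56, with an adjusted permutation p of 0.0300. Both calls were lost at a pseudocount of 5 (adjusted permutation p of 0.0704 for Ccr2 to Cx3cr1 and 0.0935 for Ccl3 to Ccl4). Both were also lost without IR library 3 or 4 (adjusted permutation p of 0.0530 and 0.0543 for Ccr2 to Cx3cr1, 0.0544 and 0.0625 for Ccl3 to Ccl4). That of Ccl3 to Ccl4 was also lost without IR library 5 (0.0594), sham library 3 (0.0622) or sham library 8 (0.0563). The ratio of Ccl2 to Ccl3 differed by -0.01, with an adjusted permutation p of 0.958, but by 0.48 with an adjusted permutation p of 0.0191 at a pseudocount of 5, which compresses the low values of Ccl3.

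**Figure D2:**
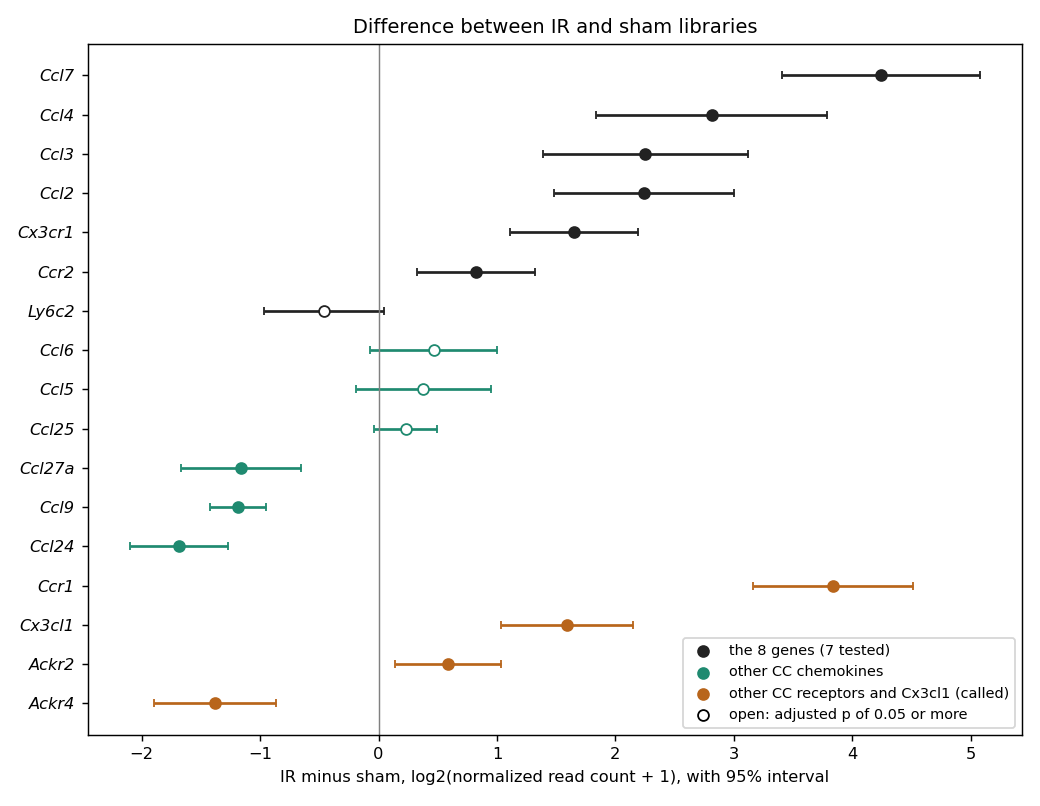
Log2 difference, IR minus sham, with its 95% interval from limma, for the 7 tested genes (black), 6 other CC chemokines (green) and the 4 called genes among the other receptors and Cx3cl1 (orange), with open symbols at an adjusted p of 0.05 or more. Ccl7 at 4.24 and Ccr1 at 3.84 lie farthest to the right, and Ccl24 at -1.68 farthest to the left.

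Ccl2, Ccl3 and Ccl4 had the largest SDs of the 8 genes among the IR libraries. The SD of the log2 values in IR was 1.17 for Ccl2, 1.27 for Ccl3 and 1.40 for Ccl4, against 0.29, 0.41 and 0.55 in sham libraries. For the other ligands it was closer between the groups, 0.99 and 0.84 for Ccl7 and 0.91 and 0.74 for Ccl12, and relative to the mean their SD was smaller in IR (71.3% against 87.8% and 69.4% against 128.3%). The highest IR library exceeded the lowest 13.2-fold for Ccl2, 15.2-fold for Ccl3 and 14.2-fold for Ccl4, but 4.48-fold for Ccr2 and 3.30-fold for Cx3cr1. Only Cx3cr1 of the 8 genes had a smaller SD in IR (0.54) than in sham libraries (0.60). The genotypes are mixed within each group, and their part in this spread was not tested.

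The same libraries were high for most of the genes. IR libraries 5, 7 and 8 took the first 3 places for Ccl2, Ccl7, Ccl3, Ccl4 and Ccr2, and IR libraries 1 and 3 were among the lowest 3 for each of these genes. Cx3cr1 was highest in IR library 4, at 62.3 normalized reads. IR library 8, with the most Ccl2, had the most reads, 12558179, and a normalized total of 9349706, with 1 IR library lower.

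Over the 9 IR libraries, log2 values of Ccl2 and Ccl7 had a Pearson r of 0.953 (exact permutation p of 9.92e-05, adjusted 0.00198 over 20 tests) and a Spearman rho of 0.950 (exact permutation p of 3.53e-04). Without the 2 libraries farthest from the median of Ccl2, r was 0.924. For Ccl2 and Ccl3, r was 0.940 (adjusted exact permutation p of 0.00311), rho was 0.983 (exact permutation p of 4.96e-05) and r without 2 libraries was 0.887. These pairs were the closest to Ccl2 among the genes.

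Ccl2 and Ccl4 had an r of 0.849 and a rho of 0.833 (exact permutation p of 0.00427 and 0.00827), and r was 0.814 without 2 libraries. Ccl2 and Ccl12 had an r of 0.854 and a rho of 0.845 (exact permutation p of 0.00359 and 0.00657), and r was 0.833 without 2 libraries. Ccl2 and Ccr2 had an r of 0.825 and a rho of 0.783 (exact permutation p of 0.00577 and 0.0172), and r was 0.771 without 2 libraries. Adjusted over the 20 tests, the permutation p of r was 0.0171 for Ccl4 and for Ccl12 and 0.0175 for Ccr2, so that all 5 relations with Ccl2 passed.

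Ly6c2 and Cx3cr1 did not pass with Ccl2. Ly6c2 had an r of 0.738 and a rho of 0.667 (exact permutation p of 0.0223 and 0.0589, adjusted p of r 0.0558), and r was 0.861 without 2 libraries. Cx3cr1 had an r of 0.178 and a rho of 0.283 (exact permutation p of 0.651 and 0.463, adjusted p of r 0.723), and r was 0.113 without 2 libraries.

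Among the other pairs, Ccl3 and Ccl4 had an r of 0.942 and a rho of 0.867 (exact permutation p of 8.30e-04 and 0.00451, adjusted p of r 0.00553), and r was 0.939 without 2 libraries. Ccr2 and Ly6c2, both classical monocyte genes, had an r of 0.828 and a rho of 0.933 (exact permutation p of 0.00611 and 7.50e-04, adjusted p of r 0.0175), and r was 0.862 without 2 libraries. Ccr2 and Cx3cr1 had an r of 0.379 and a rho of 0.517 (exact permutation p of 0.313 and 0.162, adjusted p of r 0.392), and r was 0.377 without 2 libraries. Ccr2 and Ly6c2 thus varied together among the IR libraries although their group differences had opposite signs. In sham libraries none of the 10 pairs passed, with r from -0.51 for Ccl2 and Ccr2 to 0.604 for Ccr2 and Ly6c2 and a lowest adjusted permutation p of 0.197.

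**Figure D3:**
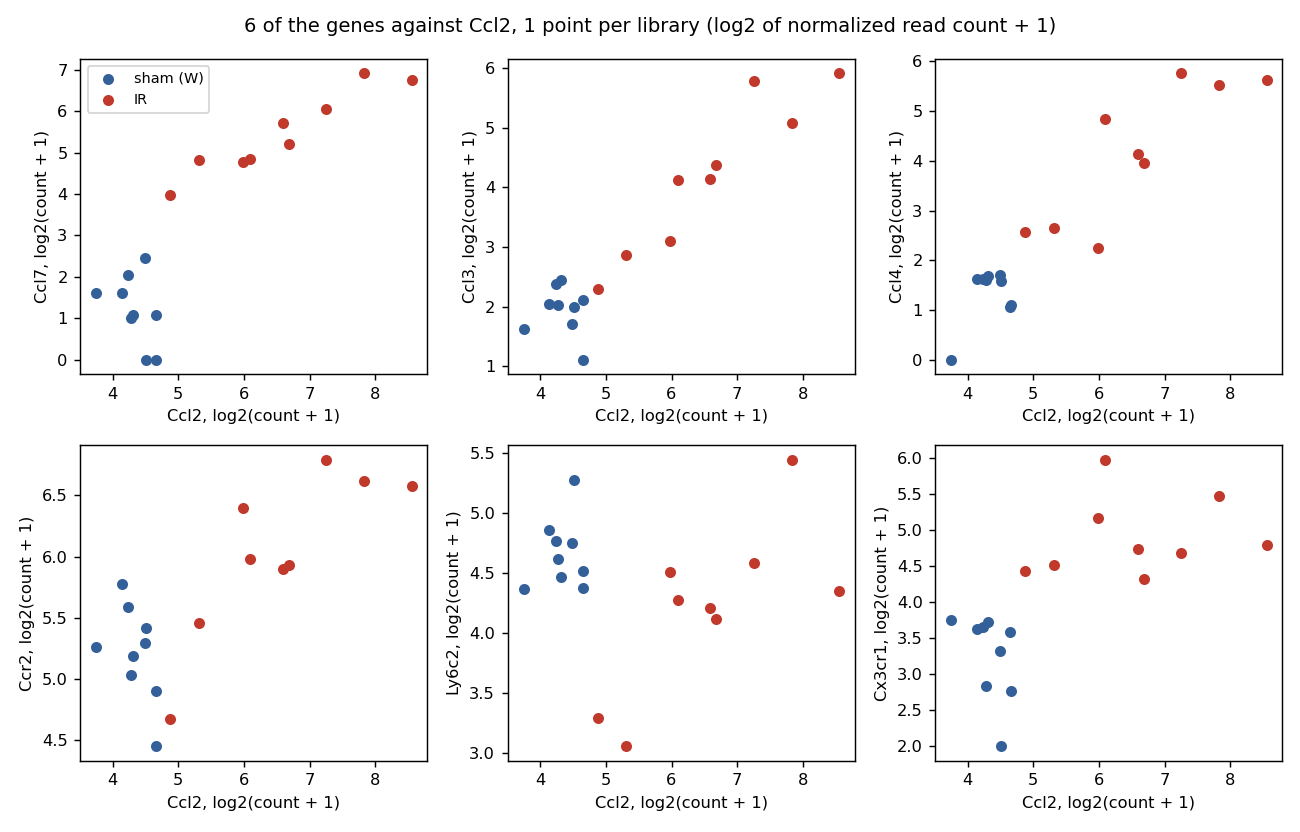
Log2(normalized read count + 1) of 6 of the genes against Ccl2, 1 point per library, sham in blue and IR in red. Among the 9 IR libraries Ccl7 and Ccl3 follow Ccl2 closely (r of 0.953 and 0.940), and Cx3cr1 does not (r of 0.178).

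High correlations with Ccl2 were not limited to these genes. Of 13868 other tested genes, 111 or 0.800% had an r with Ccl2 over the IR libraries at least as high as that of Ccl7, 194 or 1.40% at least as high as that of Ccl3, and 1184 or 8.54% at least as high as that of Ccr2. The 5 genes most like Ccl2 were Adam15 (r of 0.989), which encodes a membrane metalloprotease, Clic1 (0.989), Sik1 (0.989), a salt-inducible kinase, Adamts4 (0.989), a secreted protease of proteoglycans, and Inpp5d (0.988), which encodes the phosphatase SHIP1 of blood cells. Adamts4 rose from a median of 1.11 to 82.7 normalized reads, while Clic1 had a log2 difference of 0.22 and a limma adjusted p of 0.189. The 5 most like Ccr2 were Frzb (0.972), a secreted Wnt antagonist, Mt3 (0.960), a metallothionein, Slfn1 (0.952), Nrg1 (0.947), a ligand of ErbB receptors, and Gm13056 (0.942). The points are the same 9 libraries for every gene.

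Of 16 other CC chemokines, 6 were tested, none was higher, 3 were lower and the median log2 difference was -0.47. Among all tested genes 37.7% were higher and 36.7% lower. Ccl24, an eotaxin, fell from a median of 150.9 to 41.1 normalized reads (log2 difference -1.68, limma adjusted p of 1.92e-07). Ccl9, a Ccr1 ligand, fell from 1367.4 to 638.4, and Ccl27a fell from 52.8 to 21.5. With libraries scaled to their totals these 3 were still lower, and Ccl5, Ccl6 and Ccl25 became higher, with log2 differences of 0.61, 0.70 and 0.46. The 10 untested genes of this list had medians of at most 5.11 normalized reads in either group.

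Among 14 other CC and atypical receptors and Cx3cl1, 8 were tested, 3 were higher and 1 was lower, with a median of 0.28. The share higher was close to the 37.7% of all tested genes, of which 36.7% were lower. Ccr1, a receptor of Ccl3 and Ccl7 on neutrophils and monocytes, rose from a median of 2.97 to 52.1 normalized reads (log2 difference 3.84, SE 0.32, limma adjusted p of 1.56e-09), with every IR library above every sham library. Cx3cl1, the ligand of Cx3cr1, rose from 4.96 to 18.2 (log2 difference 1.59, limma adjusted p of 2.04e-05). Ackr2, a scavenger receptor of CC chemokines, rose from 19.7 to 25.8 (log2 difference 0.59, limma adjusted p of 0.0176), and Ackr4 fell from 15.5 to 5.88.

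Markers of classical monocytes were divided. Of 17, 15 were tested, 9 were higher and 4 lower, with a median of 0.51. Chil3, a chitinase-like protein, rose from 2.20 to 107.5 normalized reads, Cd14 from 44.6 to 1534, the coagulation factor gene F13a1 from 4.44 to 136.9 and the proteoglycan gene Vcan from 2.31 to 49.1, with log2 differences of 5.35, 5.30, 4.72 and 3.88. Among the 4 lower markers, Lyz2, the lysozyme gene of myeloid cells, fell by 1.81 on the log2 scale, Plac8 by 1.59 and Mgst1, a glutathione transferase gene, by 1.17, each with every IR library below every sham library. The summed level of the list was 16676 to 37231 in IR and 38438 to 62595 in sham libraries, most of it Mgst1. The sham median of Mgst1, 42071 normalized reads, lay between those of the hepatocyte markers Cps1 (34302) and Cyp2e1 (57492). Which cells the Mgst1 reads came from was not tested. Without Mgst1 the sums overlapped, at 2029 to 7551 in IR and 2805 to 4377 in sham libraries, with medians of 3441 and 3464. Of the 10 nonclassical monocyte markers, all tested, 4 were higher and 5 lower, with a median of -0.22. Over all tested genes 37.7% were higher and 36.7% lower. Among them Ace and Nr4a1 rose by 2.25 and 1.68 on the log2 scale, and Cd300e fell by 1.88 and Ear2 by 1.18. The summed level was 423 to 1041 in IR and 588 to 686 in sham libraries.

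Markers of other leukocytes moved with the same contrast, and their part in the differences of the 8 genes was not tested. The counts below stand against 37.7% higher and 36.7% lower over all tested genes. Of 14 neutrophil markers, 9 were tested and all 9 were higher, with a median of 4.12 and summed levels of 378 to 4724 in IR against 63.2 to 138.8 in sham libraries. Il1r2, Retnlg, Mmp8 and Mmp9 rose by 6.23, 5.55, 4.65 and 4.19 on the log2 scale. Of the untested markers, Ly6g had a median of 3.92 normalized reads in IR and 0 in sham libraries. Elane had medians of 5.66 and 1.05, and Ltf 3.82 and 1.04. Camp had similar medians, 1.02 in IR and 1.10 in sham libraries, and Stfa2 had a median of 0 in both groups. Of 15 macrophage and Kupffer cell markers, all tested, 2 were higher and 12 lower, with a median of -1.11 and summed levels of 4861 to 7791 in IR against 12054 to 16250 in sham libraries. Vsig4 fell by 2.31 on the log2 scale, Slc40a1 by 2.09, Timd4 by 1.87 and Cd5l by 1.83. The 2 higher markers, Marco and Cd68, rose by 1.20 and 1.07.

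Of 12 markers of T, B and NK cells, 10 were tested and 9 were lower, with a median of -2.10 and summed levels of 22.9 to 68.4 in IR against 162.2 to 297.3 in sham libraries. The B cell gene Ms4a1 had a median of 0 in IR libraries against 21.4, and Cd3g and Gzma fell by 2.40 and 2.23 on the log2 scale. Of 9 dendritic cell markers, 8 were tested, 1 was higher and 3 lower, with a median of -0.21 and summed levels of 903 to 1866 in IR against 1197 to 1940 in sham libraries. The share of dendritic cell markers that was lower was close to the 36.7% of all tested genes, of which 37.7% were higher. Itgax rose by 0.65, while Siglech, Xcr1 and Zbtb46 fell by 1.26, 1.18 and 0.42.

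**Figure D4:**
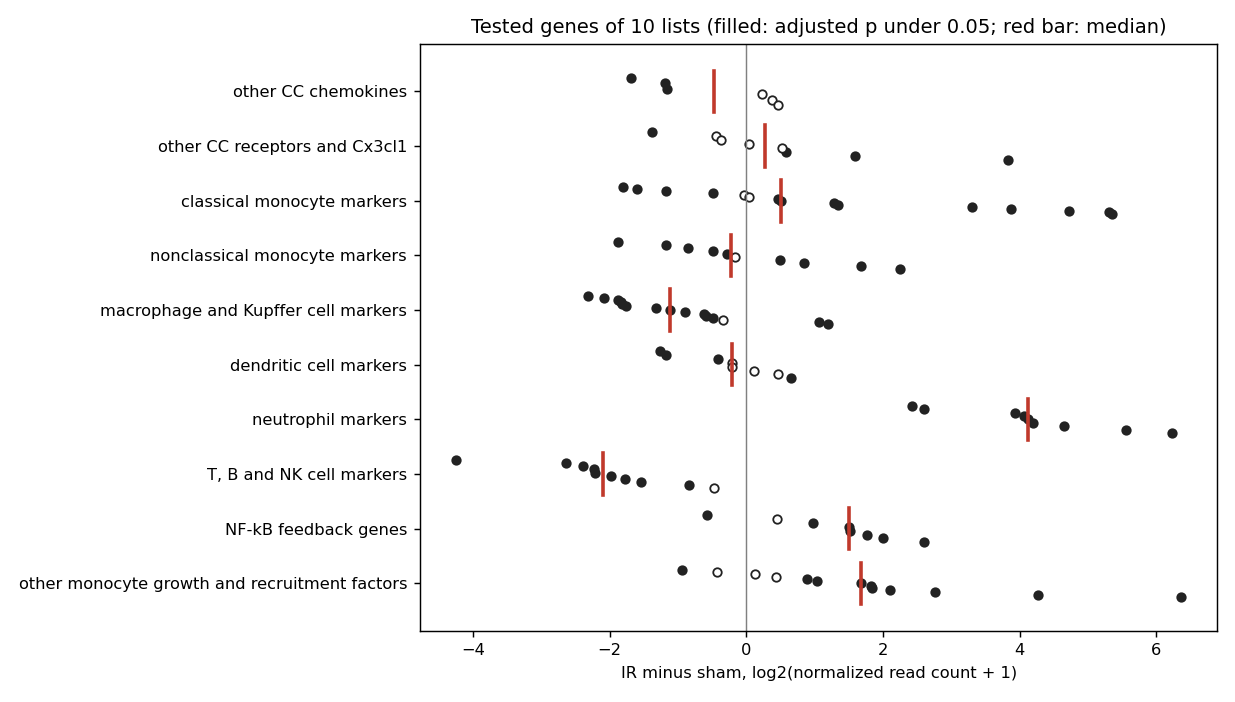
Log2 difference, IR minus sham, of each tested gene in 10 lists, filled where the adjusted p was under 0.05, with a red bar at the list's median. All tested neutrophil markers lie to the right of 0 (median 4.12), all tested T, B and NK cell markers to the left (median -2.10), and classical monocyte markers lie on both sides.

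Most tested genes of the lists that act beside the ligands were higher, against 37.7% of all tested genes higher and 36.7% lower. Of 8 feedback genes of the NF-kB pathway, which is known to drive Ccl2 transcription, 6 were higher and 1 lower, with a median of 1.51. Bcl3, Tnfaip3, Nfkb2 and Nfkbiz rose by 2.60, 2.00, 1.76 and 1.51 on the log2 scale. Of 14 other factors of monocyte and leukocyte growth or recruitment, 13 were tested, 9 were higher and 1 lower, with a median of 1.68. The neutrophil chemokines Cxcl2 and Cxcl1 rose by 6.37 and 4.28, the endothelial adhesion gene Sele by 2.77 and Icam1, the ligand of leukocyte integrins, by 2.10. Their summed levels per library were 2269 to 6727 normalized reads in IR against 930 to 1105 in sham libraries.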

How the data were processed

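RNA was extracted from liver with Trizol and made into libraries with a NEBNext Ultra kit, per the labels. Trimmomatic 0.33, STAR 2.5.0a and DESeq2 1.14 are named, with the build GRCm38, in the submitters' processing notes. The sources used here do not give the read counter, its annotation or its strand setting. The deposited values are a normalized signal, read counts after division by a size factor, per the table's name. In each of the 18 libraries, 100% of values were whole multiples of what 1 read is worth (0.745 to 1.15), within a tolerance of 0.05 reads, so whole reads were recovered.

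Values were tested as log2(value + 1) with limma 3.58.1 (trend) on genes with a mean of at least 5, with Benjamini-Hochberg adjustment and a threshold of 0.05. The count tests, edgeR 4.0.16 and DESeq2 1.42.0, were alternatives on recovered reads, and edgeR called 10381 genes against 10319 by limma. Ratios and correlations used exact permutation tests, computed by functions that were checked against SciPy 1.17.1. Symbols matched 98.9% of identifiers. Scripts were tested on simulated data. No libraries within a group agreed within counting error (chi-square per degree of freedom of at least 7.86).

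Lists and members were chosen with earlier results of these data known. All 8 members and Ly6c1 are named, and from each other list at most 4 called genes with the largest differences (some items are not reported here), besides the 5 genes most correlated with Ccl2 and with Ccr2. Ccl5, Ccl6, Ccl25, Ly6g, Elane, Ltf, Camp, Stfa2, Marco, Cd68, Lyz2, Plac8 and Mgst1 were named after their values were seen. Alternatives were other pseudocounts, filters and scalings, array weights, a replicate block and leaving out each library.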

Additional observations from a re-analysis of the deposited data

Results flagged for a closer look

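The lowest of the 9 sham values of Ccl4 was 0 on the log2(value + 1) scale, in sham library 3, which had no Ccl4 read. Its gap to the next sham library was 0.628 of the range of the group, above the 95% limit of Dixon's test for a group of this size. The other sham libraries held 1 or 2 Ccl4 reads each, so that the gap is that between 0 reads and 1. It was the only such case in the 16 sets of values examined (8 genes in 2 groups), and chance flags about 1 set in 20.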

How the results depend on the processing

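Over the 12 other settings, 8897 to 11910 genes were called against 10319, and 10123 to 10349 when 1 library was left out. The calls of Ccl2, Ccl7, Ccl3, Ccl4, Ccr2 and Cx3cr1 kept direction and side of the threshold in each setting that gave a value; Ccl3 and Ccl4 had none with a mean of at least 20. Their log2 differences ranged from 2.05 to 2.71 for Ccl2, 2.89 to 4.998 for Ccl7, 1.57 to 3.04 for Ccl3, 1.81 to 3.88 for Ccl4, 0.75 to 1.06 for Ccr2 and 1.31 to 1.87 for Cx3cr1. Ccl12 had 0.89 with limma without a filter (adjusted p of 0.0515) and 1.54 with edgeR without a filter (adjusted p of 0.0559, chosen after seeing the data, as were scaling to library totals and the sum of Ly6c2 and Ly6c1). Leaving out 1 library gave 0.77 to 1.08 for Ccl12, with an exact permutation p of 0.0139 to 0.0751 that stayed under 0.05 in 6 of 18 cases, and -0.62 to -0.32 for Ly6c2, with a limma adjusted p of 0.0133 to 0.190, under 0.05 without IR library 5 alone. It gave -0.66 to -0.43 for the ratio of Ccl3 to Ccl4 and -0.97 to -0.65 for that of Ccr2 to Cx3cr1. A pseudocount of 5 gave 0.48 for the ratio of Ccl2 to Ccl3, the opposite sign, -0.24 for Ccl3 to Ccl4 and -0.55 for Ccr2 to Cx3cr1, the last 2 no longer past the threshold (adjusted permutation p of 0.0935 and 0.0704). Header numbers did not pair the libraries: same-numbered libraries deviated with an r of -0.069 to 0.121, over 0.1 for number 8 alone. With the replicate block 10218 genes were called and no call of the 7 tested genes changed. With under 30 reads per group in all, Ccl12 and the sham levels of Ccl7, Ccl3 and Ccl4 are limited by depth.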

Other observations

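Of 10 hepatocyte markers, all tested, 9 were lower and 1 higher, with a median log2 difference of -1.12, and the summed level of the list was 544638 to 899912 normalized reads in IR against 1977158 to 2392541 in sham libraries. Among all tested genes 37.7% were higher and 36.7% lower. The drug-metabolizing enzyme genes Cyp3a11 and Cyp2e1 fell by 2.93 and 1.40 on the log2 scale, and the urea cycle gene Cps1 fell by 1.44. Of 6 cholangiocyte markers, 5 were tested and 4 were higher, with a median of 1.44. Sox9, a transcription factor of bile ducts, rose by 5.22, Spp1, which encodes osteopontin, by 2.98, and the epithelial genes Krt19 and Epcam by 1.44 and 1.20.

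Stellate cell and fibroblast markers divided evenly, with 5 of 10 higher and 5 lower and a median of -0.16. The collagen gene Col1a1, the smooth muscle actin gene Acta2 and the receptor gene Pdgfrb rose by 3.26, 2.42 and 1.90, while Lrat, which encodes the enzyme of retinoid storage in quiescent stellate cells, fell by 1.89. Of 10 endothelial markers, 4 were higher and 4 lower, with a median of 0.18, beside 37.7% higher and 36.7% lower over all tested genes. Vwf rose by 1.48, while Clec4g, a sinusoidal endothelial lectin, Kdr and Tek fell by 2.05, 1.22 and 0.88. Of 6 erythroid markers, 5 were tested and 1, Hbb-bt, was lower (log2 difference -1.38), with a median of 0.05 and summed levels of 147 to 3356 in IR against 532 to 3053 in sham libraries. Among the NF-kB feedback genes the lower gene was Birc3, with a log2 difference of -0.58, chosen after its value was seen.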
